A study of Mus musculus with 9 samples.

Results

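The 10 genes described here encode surface proteins by which mouse haematopoietic stem and progenitor cells are sorted and subdivided: Kit, Ly6a, Slamf1, Cd48, Cd34, Flt3, Procr, Thy1, Esam and Robo4. They were chosen by name for that use, with earlier results of these data known. They are 10 of 20660 named genes on the array and all 10 were among the 13120 genes tested, through 13 probes. RNA had been measured on 1-colour Agilent mouse arrays in LSK cells, which are marrow cells without lineage antigens but with Sca-1 and Kit. The groups were DNMT3A R882H, wild-type DNMT3A and empty vector, with 3 arrays each. In all groups the cells were of the C57BL/6 strain, carried a GFP-labelled vector, came from transplanted mice and were sorted. No deletion of the cells' own Dnmt3a is named in the labels. Age, vector promoter and time after transplantation are not given in the sources used here. DNMT3A places new methyl groups on cytosines, mostly where a G follows, and R882H is the substitution most often found in it in acute myeloid leukaemia. Labels do not say whether replicates came from separate animals, so p-values cover only the spread among these arrays, and that spread may be technical.

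Values are log2 signal relative to the 75th percentile of the array, called the log2 level below, and a difference of 1 on this scale is a doubling. The scanner output and the authors' deposited value table disagreed on which array is which sample. Of the 9 table columns, 2 matched the array of their own sample and 7 matched a different array, in 4 cases one of another group. Which labels are right could not be settled. Groups follow the labels of the scanner output here, and the main results are also given with the table columns as named. Arrays lay on 3 slides. Slide 1 held the 3 empty vector arrays and wild-type replicate 1, slide 2 held wild-type replicates 2 and 3 with R882H replicates 1 and 2, and slide 3 held R882H replicate 3. No slide held both R882H and empty vector, so for that pair slide and group cannot be told apart except through the wild-type arrays. With slide as a block, R882H replicate 3, alone on slide 3, adds nothing to the differences. On slide 1, wild-type replicate 1 is then the only link to empty vector. Empty vector replicate 3 and wild-type replicate 3 stood apart, at 53.1 and 33.9 on the first principal component against -30 to 8.39 for the other 7 arrays. Between 53.4% and 64.8% of probes were well above background per array, and precision is limited by how many arrays there are. The Dnmt3a probe read 1.40 ± 0.30 with R882H, 1.22 ± 0.70 with wild-type DNMT3A and 1.03 ± 0.47 with empty vector (log2 level, SD, n = 3 each). Whether that mouse probe can bind the transgene's RNA is unknown here, so it does not check the labels. Each array held cDNA amplified from 3.67 ng of total RNA. In such bulk samples, fewer cells of a type and less RNA per cell cannot be told apart.

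The stem cell compartment is read from combinations of these proteins. Kit is the receptor for stem cell factor and Ly6a is Sca-1, and together they define the LSK gate. Within the gate, mouse long-term stem cells carry Slamf1 and lack Cd48, while Cd34 and Flt3 appear as cells become multipotent progenitors. Procr, Thy1 and Esam are further antigens of the stem cell end, and Robo4 is a guidance receptor of endothelium and stem cells that takes part in anchoring stem cells in the marrow. Procr, Esam and Robo4 are also made by endothelial cells.

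Because DNMT3A acts on the dinucleotide CG, the bases just before 3 of the genes are shown, with each CG in capitals: Robo4, whose level differed most without overlap, Kit, an antigen of the sort gate with a CG-rich start, and Cd34, with a median number. The sequences are those of RefSeq on GRCm38.p6, all on the plus strand, and end at the last base before the gene. They lie at chr9:37401722-37401901 for Robo4, chr5:75574737-75574986 for Kit and chr1:194938571-194938820 for Cd34.
Robo4: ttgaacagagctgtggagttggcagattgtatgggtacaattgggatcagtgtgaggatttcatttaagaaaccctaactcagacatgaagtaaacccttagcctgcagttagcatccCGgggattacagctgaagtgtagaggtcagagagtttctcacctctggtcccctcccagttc
Kit: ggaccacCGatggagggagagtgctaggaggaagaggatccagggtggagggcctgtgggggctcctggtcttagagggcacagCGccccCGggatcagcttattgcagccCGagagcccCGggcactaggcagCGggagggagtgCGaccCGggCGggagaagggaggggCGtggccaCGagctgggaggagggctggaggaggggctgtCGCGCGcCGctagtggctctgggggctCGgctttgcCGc
Cd34: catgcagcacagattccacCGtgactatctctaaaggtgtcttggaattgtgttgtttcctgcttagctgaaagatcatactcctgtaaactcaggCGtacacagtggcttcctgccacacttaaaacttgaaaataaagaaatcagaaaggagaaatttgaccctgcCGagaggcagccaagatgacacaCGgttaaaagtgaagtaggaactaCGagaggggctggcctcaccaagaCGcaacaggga
The Robo4 stretch of 180 bases held 1 CG, and 87.3% of 32841 promoters held at least as many in the same stretch. Kit held 17 in 250 bases, a number reached by 23.5% of promoters, and Cd34 held 6, reached by 50.4%. CG reads the same on both strands. Promoters were found in the table for 7 of the 10 genes, not for Ly6a, Thy1 and Esam. Methylation was not measured, so nothing here says whether these sites carried it.

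No gene passed the adjusted p of 0.05 in any comparison, neither among the 10 (0 of 10 in each) nor among all 13120 (0%). The lowest limma adjusted p over all genes was 0.302 for R882H against empty vector, 0.0922 for R882H against wild-type DNMT3A and 0.194 for wild-type DNMT3A against empty vector. At an unadjusted p under 0.05, the counts of the 10 were 3 against a background of 9.02% of genes, 2 against 8.01% and 1 against 5.95%, in the same order. Measured values of the 10 follow by role, and a value given as a difference did not pass the adjusted test. In R882H against empty vector 8 of the 10 means were higher, against 48% of all genes, with a median difference of 0.26 against -0.02 over all genes. Without empty vector replicate 3 the count was 5 of 10 and the median 0.034, and with the table columns as named the count was 3 of 10. In R882H against wild-type DNMT3A 7 were higher, against 48.3% of all genes, with a median of 0.36 against -0.01. Without wild-type replicate 3 that count was 5 of 10. Slamf1, counted as higher in both comparisons, entered the tested genes only through its R882H arrays and adds no support to either count. Without Slamf1 the medians over all arrays were 0.25 and 0.11. Those of the 10 whose groups did not overlap were Robo4 (higher) and Thy1 (lower) against empty vector, and Robo4 (higher) and Cd48 (lower) against wild-type DNMT3A. That is 1 of 10 per direction, against a background of 9.5% higher and 8.77% lower, and of 6.79% higher and 8.62% lower. Both comparisons use the same R882H arrays.

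**Figure D1:**
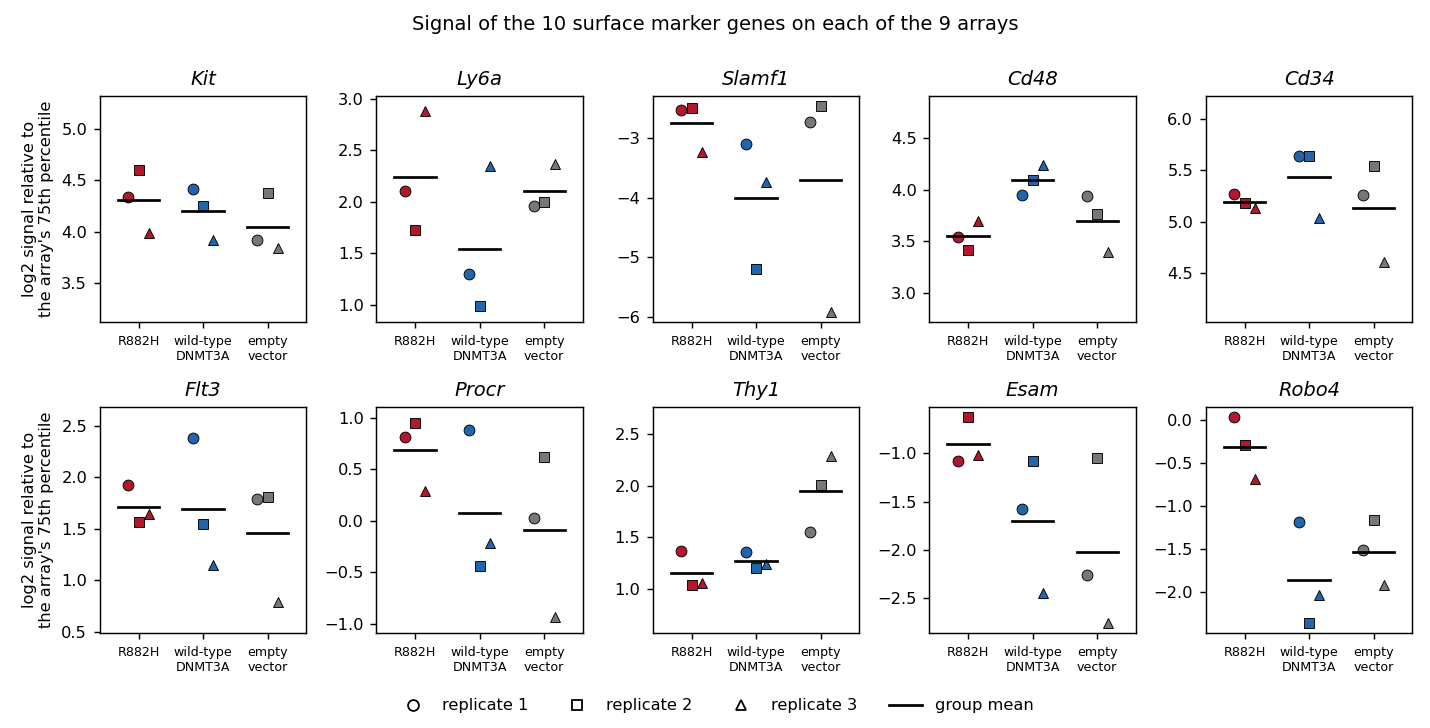
Log2 level (relative to the array's 75th percentile) of the 10 surface marker genes on each of the 9 arrays, grouped as R882H, wild-type DNMT3A and empty vector; a symbol marks each replicate and a bar the group mean. Robo4 lay between -0.69 and 0.03 with R882H, above all wild-type and empty vector arrays.

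Of the antigens of the sort gate, Kit differed little in mean between groups. Its log2 level was 4.33, 4.60 and 3.99 in R882H replicates 1 to 3, 4.42, 4.25 and 3.92 with wild-type DNMT3A and 3.92, 4.38 and 3.84 with empty vector. The groups overlapped. The difference between R882H and empty vector was 0.26 ± 0.23 (SE), with a 95% interval from -0.25 to 0.78 (limma adjusted p = 0.694), and that between R882H and wild-type DNMT3A was 0.11 ± 0.23. Equal levels of Kit are not shown by these intervals, which are wider than the differences. On slide 2 alone R882H minus wild-type DNMT3A was 0.38.

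Ly6a, which encodes Sca-1, varied widely within groups. It read 2.11, 1.73 and 2.88 on R882H arrays, 1.30, 0.98 and 2.35 with wild-type DNMT3A and 1.96, 1.99 and 2.36 with empty vector. The highest array of each group was replicate 3. R882H minus wild-type DNMT3A was 0.69 ± 0.39 (SE, limma adjusted p = 0.658), with groups that overlapped, and 0.25 on slide 2 alone. It was 0.375 without R882H replicate 3, 0.41 without wild-type replicate 2 and 1.097 without wild-type replicate 3. Against empty vector the R882H mean differed by 0.13 ± 0.39, and by -0.056 without replicate 3 of every group. Ly6a has near-identical neighbours in the Ly6 cluster, and how far its probe binds their transcripts was not tested.

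Of the SLAM antigens, Slamf1 was detected on 6 of 9 arrays and Cd48 on all 9. Slamf1, an adhesion receptor present on long-term stem cells, read -2.53, -2.50 and -3.23 on R882H arrays, -3.11, -5.21 and -3.73 with wild-type DNMT3A and -2.73, -2.46 and -5.92 with empty vector. It was well above background on 3 R882H, 1 wild-type and 2 empty vector arrays. The groups overlapped, and the SD was 0.41 with R882H and 1.92 with empty vector. R882H minus empty vector was 0.95 ± 0.88 (SE, limma adjusted p = 0.716) and was -0.16 without empty vector replicate 3, so its direction rested on that array.

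Cd48, the SLAM antigen gained as cells leave the stem cell state, was lowest with R882H and highest with wild-type DNMT3A. The first probe read 3.54, 3.41 and 3.69 on R882H arrays, 3.95, 4.09 and 4.24 with wild-type DNMT3A and 3.94, 3.77 and 3.39 with empty vector. The highest R882H array lay below the lowest wild-type array, while R882H and empty vector overlapped. R882H minus wild-type DNMT3A was -0.54 ± 0.18 (SE), with a limma adjusted p of 0.555. The second Cd48 probe read 2.10, 2.00 and 2.28 with R882H against 2.61, 2.50 and 2.84 with wild-type DNMT3A, again without overlap, a difference of -0.52. Both probes thus gave the same order of groups. The difference was -0.68 on slide 2 alone and -0.61 to -0.47 with 1 array left out, but 0.10 with the deposited table's columns as named. R882H minus empty vector was -0.15 ± 0.18, with an interval from -0.56 to 0.26.

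Slamf1 and Cd48 lie close together in the SLAM gene cluster of chromosome 1, with only 3 annotated loci between them. For Slamf1, above background on 1 of 3 wild-type arrays, R882H minus wild-type DNMT3A was 1.26 ± 0.88 (SE), 0.26 with normexp background correction and 0.67 without wild-type replicate 2. Of 9 other SLAM receptors and adaptors listed, 3 were tested, all above background on all 9 arrays, and 5 were above it on no array. The brightest, Cd244a, averaged 2.84 with R882H, 2.44 with wild-type DNMT3A and 2.76 with empty vector. Ly9, a SLAM receptor of lymphocytes, differed between R882H and empty vector by -0.59 ± 0.31, Cd84 by 0.22 ± 0.23 and Cd244a by 0.07 ± 0.35. None of the 3 passed the adjusted test.

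Of the progenitor antigens, Cd34, a sialomucin, had close means in all groups. Its first probe read 5.27, 5.19 and 5.13 on R882H arrays, 5.64, 5.64 and 5.04 with wild-type DNMT3A and 5.26, 5.54 and 4.61 with empty vector. All groups overlapped, and the R882H arrays were the closest together (SD 0.07, against 0.35 with wild-type DNMT3A and 0.48 with empty vector). R882H minus empty vector was 0.06 ± 0.26 (SE), with an interval from -0.53 to 0.65, and R882H minus wild-type DNMT3A was -0.24 ± 0.26. The second Cd34 probe gave -0.05 and -0.22 for these differences.

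Flt3 encodes the receptor of the Flt3 ligand and marks lymphoid-primed progenitors. Its first probe read 1.93, 1.56 and 1.65 on R882H arrays, 2.39, 1.55 and 1.15 with wild-type DNMT3A and 1.80, 1.81 and 0.79 with empty vector. Again the groups overlapped. The difference from empty vector was 0.25 ± 0.36 (SE, limma adjusted p = 0.816), and -0.058 without replicate 3 of every group. R882H minus wild-type DNMT3A was 0.02 ± 0.36 by the first probe and -0.21 by the second, so the 2 probes disagreed in sign there.

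**Figure D2:**
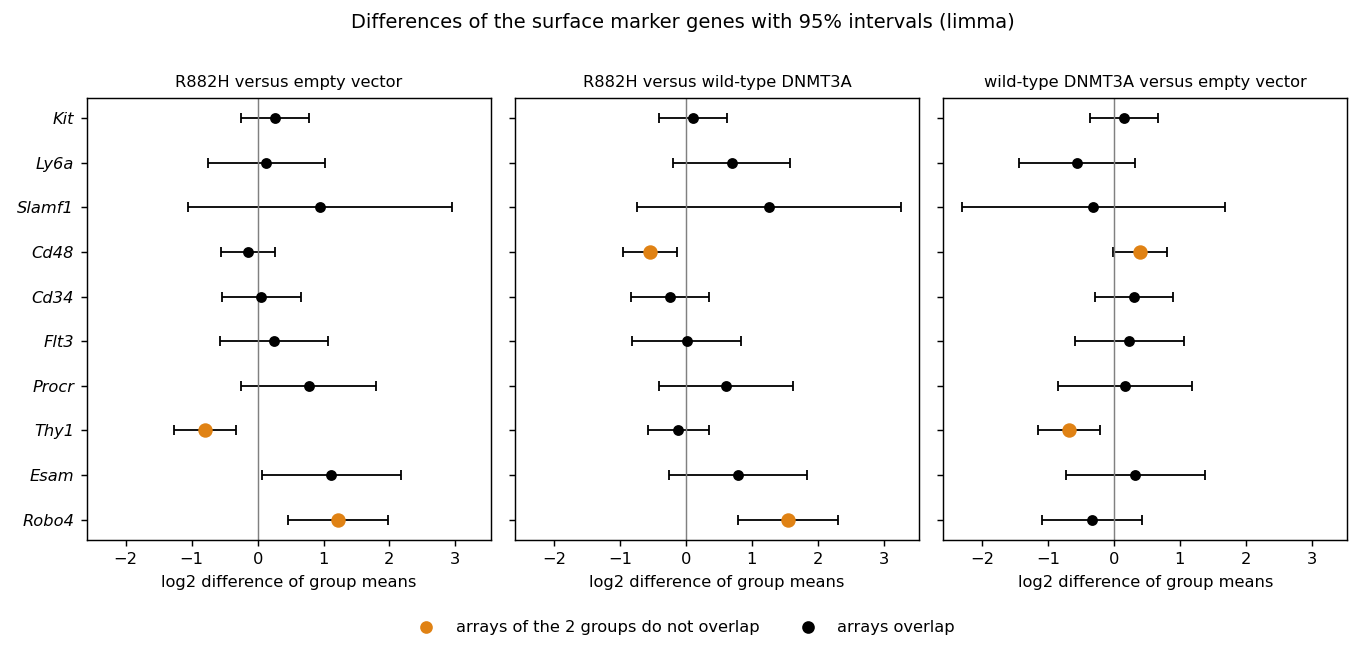
Log2 difference of group means for the 10 genes in the 3 comparisons, with 95% intervals from limma; orange points have groups whose arrays do not overlap. The intervals exclude 0 for Thy1, Esam and Robo4 in R882H against empty vector and for Cd48 and Robo4 in R882H against wild-type DNMT3A, with no adjusted p under 0.05.

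Robo4, Esam and Procr, the antigens shared with endothelium, had the 3 largest positive differences between R882H and empty vector of the genes above background on all 9 arrays. Robo4 read 0.03, -0.29 and -0.69 on R882H arrays, -1.19, -2.37 and -2.04 with wild-type DNMT3A and -1.51, -1.16 and -1.93 with empty vector. Every R882H array lay above every other array. The R882H mean was 2.32-fold that of empty vector, a difference of 1.22 ± 0.34 (SE, limma adjusted p = 0.473). It was 2.93-fold that of wild-type DNMT3A, a difference of 1.55 ± 0.34 (limma adjusted p = 0.356). With 1 array left out these differences ran from 1.02 to 1.40 and from 1.30 to 1.89, and without replicate 3 of every group the first was 1.21. Slide 2 alone gave 2.07 for R882H minus wild-type DNMT3A, with 2 arrays each, and the table columns as named gave 0.41. Over the other settings the difference from empty vector ran from 0.27 with the deposited table's columns as named, through 0.76 with normexp background correction, to 2.42 with slide as a block. The last rests on R882H replicates 1 and 2 and reaches empty vector only through wild-type replicate 1 on slide 1.

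Esam encodes an endothelial adhesion molecule used to enrich stem cells. It read -1.08, -0.62 and -1.02 on R882H arrays, -1.57, -1.07 and -2.45 with wild-type DNMT3A and -2.26, -1.05 and -2.76 with empty vector. The R882H arrays were close together and overlapped with 1 array of each other group, replicate 2. The difference of R882H from empty vector was 1.12 ± 0.46 (SE, limma adjusted p = 0.531), and R882H minus wild-type DNMT3A was 0.79 ± 0.46 (adjusted p = 0.671), or 0.42 without wild-type replicate 3. The first was 0.75 with replicate 3 of empty vector left out, 1.61 with its replicate 2 left out and 0.26 with the table columns as named, and the second was 0.91 on slide 2 alone. Esam and Robo4 are near neighbours on chromosome 9, with 2 annotated genes between them, Robo3 and Msantd2.

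Procr encodes the endothelial protein C receptor, by which stem cells can be isolated. It read 0.81, 0.95 and 0.29 on R882H arrays, 0.88, -0.44 and -0.22 with wild-type DNMT3A and 0.03, 0.62 and -0.94 with empty vector. R882H overlapped with 1 array of each other group. From empty vector the R882H mean differed by 0.78 ± 0.45 (SE, limma adjusted p = 0.588) and from wild-type DNMT3A by 0.61 ± 0.45 (adjusted p = 0.736). The first was 0.36 without empty vector replicate 3, 2.18 with slide as a block and -0.18 with the table columns as named. R882H minus wild-type DNMT3A was 1.21 on slide 2 alone, 0.35 without wild-type replicate 2 and 1.01 without wild-type replicate 1.

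Thy1, a GPI-anchored glycoprotein held at low density on mouse stem cells and at high density on T cells, ran the other way. It read 1.37, 1.04 and 1.06 on R882H arrays, 1.36, 1.21 and 1.24 with wild-type DNMT3A and 1.56, 2.01 and 2.30 with empty vector. All 6 arrays with a DNMT3A vector lay below all 3 empty vector arrays. Against empty vector the R882H difference was -0.80 ± 0.21 (SE, 1.74-fold lower, limma adjusted p = 0.434), and R882H minus wild-type DNMT3A was -0.11 ± 0.21, with an interval from -0.58 to 0.35. The first ran from -0.99 to -0.62 with 1 array left out and was -0.53 with the table columns as named. The 4 tested T and NK cell genes differed between R882H and empty vector by 0.26 ± 0.20 (Cd3e), 0.28 ± 0.23 (Lck), -0.22 ± 0.27 (Cd28) and -0.46 ± 0.21 (Nkg7). Groups did not overlap for Cd3e (higher) and Nkg7 (lower), against a background of 9.5% higher and 8.77% lower. The part of these 4 genes in the Thy1 difference was not tested.

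**Figure D3:**
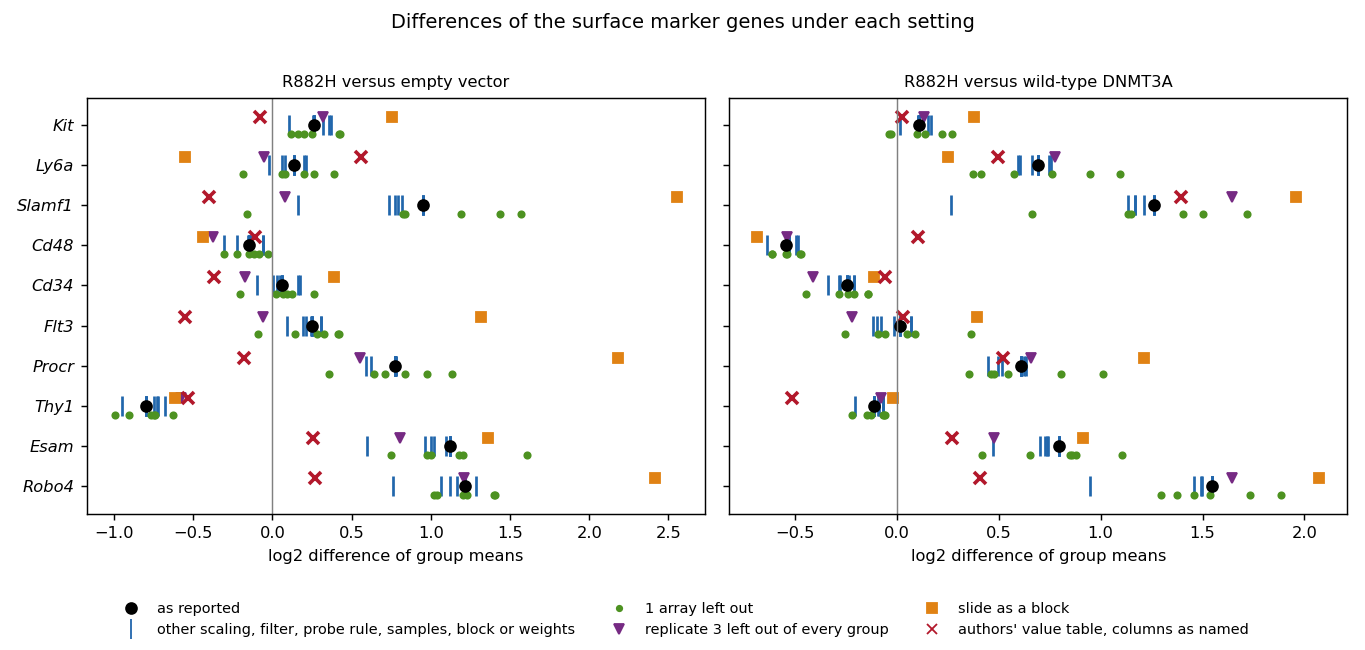
Log2 difference of R882H from empty vector and from wild-type DNMT3A for each of the 10 genes as reported (black), with 1 array left out (green) and under the other settings, of which slide as a block, replicate 3 left out and the deposited table's columns as named have symbols of their own. Robo4 stayed above 0 and Thy1 below 0 in all of them, while Kit, Ly6a, Slamf1, Cd34, Flt3 and Procr crossed 0 in the comparison with empty vector.

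Wild-type DNMT3A against empty vector asks what the enzyme without the substitution did. Its 10 differences ran from -0.68 to 0.39, with a median of 0.16 against 0.01 over all genes, and 6 of 10 were higher against 51.7% of all genes. That count was 3 without empty vector replicate 3, 4 without wild-type replicate 1 and 1 with the table columns as named. Groups did not overlap for Cd48 (higher) and Thy1 (lower), 1 of 10 per direction against a background of 5.69% and 4.38%. For Thy1 the difference was -0.68 ± 0.21 (SE, limma adjusted p = 0.767), and -0.59 for the 1 wild-type array on slide 1. For Cd48 it was 0.39 ± 0.18 (limma adjusted p = 0.84) and 0.36 by the second probe. With the table columns as named these were -0.022 and -0.22. Ly6a differed by -0.56 ± 0.39, with an interval from -1.44 to 0.32 (± 0.21 and limma adjusted p = 0.581 with the replicate block), and by -0.80 for the 1 wild-type array on slide 1. Robo4 differed by -0.33 ± 0.34, with an interval from -1.09 to 0.43.

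Replicate 3 was the lowest array of its group for 5 of 10 genes with R882H, 4 with wild-type DNMT3A and 8 with empty vector. For Kit and Cd34 it was the lowest in all 3 groups, and for Ly6a the highest in all 3. Beside this, granulocyte and monocyte markers (7 tested) averaged 4.33, 5.01 and 5.21 on replicate 3 of R882H, wild-type DNMT3A and empty vector, against 3.46 to 4.49 on the other 6 arrays. Their part in the values of the 10 genes was not tested.

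Other surface antigens of stem and progenitor cells had differences on both sides of 0. Of 25 listed, 24 were tested, 14 were higher and 10 lower in R882H against empty vector, with a median of 0.13, and 0 passed. Il7r and Jam3, among the higher, were above background on only 2 empty vector arrays each. Groups did not overlap for 4 genes, all higher, a share of the list to be read against the 9.5% of all genes. Itgb3, an integrin chain of stem cells and megakaryocytes, differed by 0.87 ± 0.17 (SE, limma adjusted p = 0.302). Cd38, an NAD-consuming ectoenzyme, differed by 0.79 ± 0.21 and Itga2b, the partner chain of Itgb3, by 0.71 ± 0.24. Against wild-type DNMT3A these were 0.36, 0.12 and 0.48, and 15 of 24 genes were higher with a median of 0.12.

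**Figure D4:**
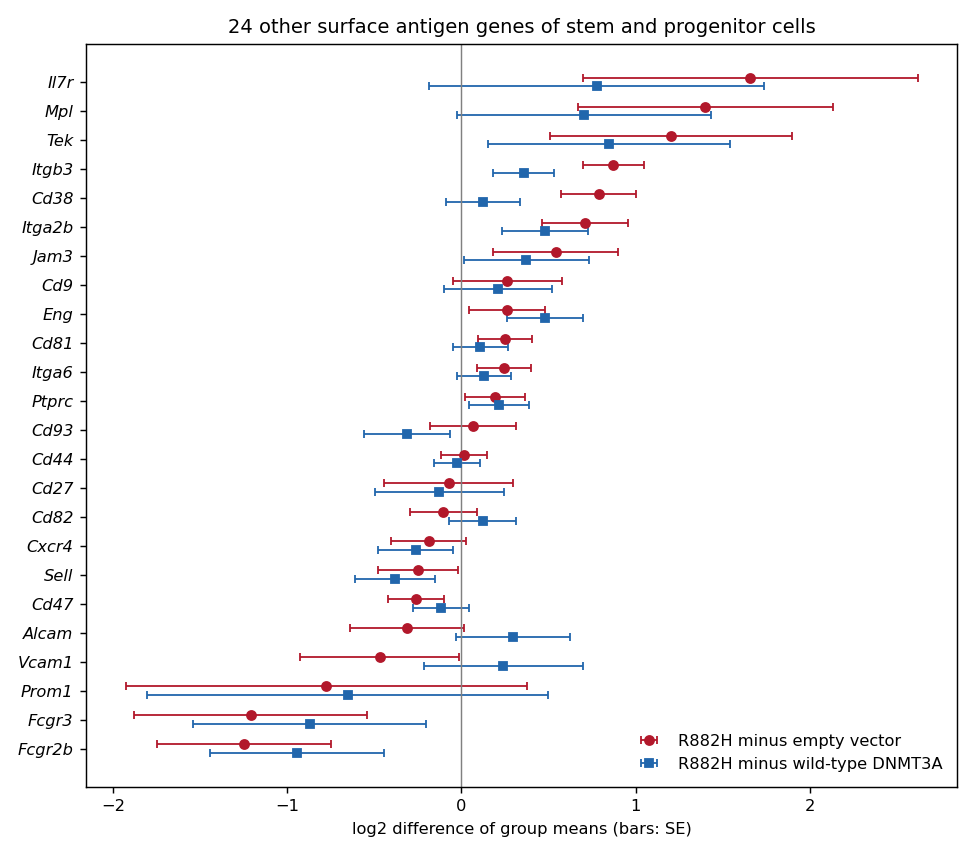
Log2 difference of R882H from empty vector (red) and from wild-type DNMT3A (blue) for the 24 other surface antigen genes tested, with bars of 1 SE, ordered by the first. Of the 24, 14 lie above 0 and 10 below it against empty vector.

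Ligands and partners of the 10 proteins were partly measured: 7 of 12 were tested, and Cd2, Slit3, Unc5b, F2rl1 and Sele were above background on no array. In R882H against empty vector 5 were higher and 2 lower, with a median of 0.34. F2r, the thrombin receptor through which Procr-bound activated protein C can signal, averaged 3.81 ± 0.19 with R882H, 2.61 ± 0.49 with wild-type DNMT3A and 2.77 ± 0.25 with empty vector (log2 level, SD, n = 3 each). R882H minus empty vector was 1.04 ± 0.26 (SE, limma adjusted p = 0.433) and R882H minus wild-type DNMT3A was 1.21 ± 0.26. Proc, which encodes protein C, the ligand of Procr, differed from empty vector by 0.58 ± 0.24, and Flt3l, the ligand of Flt3, by 0.61 ± 0.31. Proc was above background on only 1 empty vector array and entered the tested genes through its R882H and wild-type arrays. Its place in the count and the median is therefore no support. Of 9 other Ly6 genes 6 were tested, 4 higher and 2 lower, with a median of 0.10. Ly6f differed by 0.87 ± 0.57 and Ly6c1 by -0.62 ± 0.67, and Ly6d, also among the higher, was tested only through its R882H arrays. Ly6f and Ly6h, higher as well, were above background on 2 empty vector arrays each. None of the genes in these lists passed.

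The label of the cells was set against the antigens of the gate. Both Kit and Ly6a exceeded background clearly on each of the 9 arrays. Among the lineage antigens, Cd8a and Ms4a1 were above background on no array, and 4 were above it on all 9. Itgam, among those 4, averaged 7.64 with R882H, 7.60 with wild-type DNMT3A and 7.74 with empty vector, above Kit in every group. In R882H against empty vector 4 of the 5 tested were higher, with a median of 0.26: Cd4 by 0.38 ± 0.15, Il7r by 1.66 ± 0.96 and Cd3e by 0.26 ± 0.20. Il7r was above background on only 2 empty vector arrays and entered the tested genes through its R882H and wild-type arrays. Its place in that count is therefore no support. The mean log2 level of the 5 was 1.33 to 1.67 with R882H, 1.06 to 1.55 with wild-type DNMT3A and 0.44 to 1.45 with empty vector, so the groups overlapped. The 0.44 was that of empty vector replicate 3, where Il7r read -4.15, against -1.045 and 0.11 on empty vector replicates 1 and 2.

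Markers of other cells that make these antigens were read beside them. Of 13 endothelial markers 7 were tested, while Cdh5, Mmrn2, Sox17 and Ecscr were above background on no array, Flt1 on 2 R882H arrays alone and Cldn5 on 1 array of each group. The 7 averaged 0.54, 0.45 and -0.0048 on R882H arrays, -0.03, 0.08 and -0.74 with wild-type DNMT3A and 0.01, 0.27 and -1.25 with empty vector, and 6 of 7 were higher than with empty vector. Emcn, an endothelial sialomucin also on stem cells, entered the 7 only through its R882H arrays. Its place in that count and in the averages is therefore no support. On empty vector replicate 3 Emcn read -5.63 and Tie1 -4.92, and each was above background on only 2 empty vector arrays. Vwf, a clotting protein of endothelium, megakaryocytes and some stem cells, differed by 1.35 ± 0.60 (SE, limma adjusted p = 0.552) from empty vector and by 2.41 ± 0.60 from wild-type DNMT3A. It was above background on only 2 wild-type arrays, and read -3.62 on wild-type replicate 3 against -1.54 and -1.50 on replicates 1 and 2. Pecam1, an adhesion molecule, differed from empty vector by -0.31 ± 0.24.

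Megakaryocyte markers had higher means with R882H, and 5 of 7 granulocyte and monocyte markers lower ones. All 5 tested megakaryocyte markers of 8 were higher than with empty vector and than with wild-type DNMT3A, with medians of 0.85 and 1.33, and 0 passed. Their mean log2 level was 0.17, 0.39 and -0.76 on R882H arrays, -1.27, -0.89 and -1.72 with wild-type DNMT3A and -0.62, -1.07 and -2.25 with empty vector. By that mean R882H and empty vector overlapped. Gp1ba and Gp9, chains of one platelet receptor, differed from empty vector by 1.85 ± 0.44 and 0.57 ± 0.30. Gp5, another chain of it, was tested only through its R882H arrays, so it had to lie higher there. It adds no support to the count, the medians or the mean levels, which include it. Of 7 granulocyte and monocyte markers 5 were lower, with a median of -0.89. Among them were the granule enzymes Mpo by -0.89 ± 0.40, Ctsg by -1.32 ± 0.62, Elane by -1.72 ± 0.90 and Prtn3 by -1.40 ± 0.91. The others hardly differed: Csf1r by -0.0027 ± 0.14, Csf3r by 0.03 ± 0.13 and Lyz2 by 0.09 ± 0.17. All 4 tested mast cell and basophil markers were lower, with a median of -0.37: Mcpt8 by -1.04 ± 0.41, Tpsb2 by -0.31 ± 0.35 and Cpa3 by -0.24 ± 0.32. These lists had 0 called genes, and their part in the differences of Robo4, Esam and Procr was not tested.

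**Figure D5:**
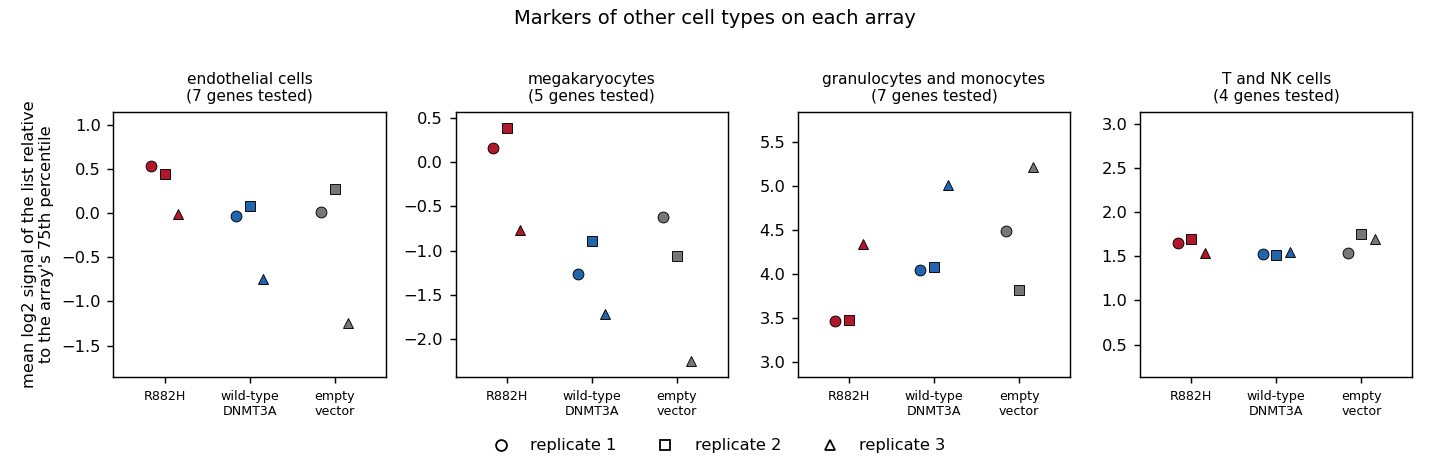
Mean log2 level of the tested markers of other cell types on each of the 9 arrays, grouped as R882H, wild-type DNMT3A and empty vector. Megakaryocyte markers lay between -0.76 and 0.39 with R882H and between -2.25 and -0.62 with empty vector, so these groups overlapped. The megakaryocyte mean includes Gp5 and the endothelial mean Emcn, both tested only through their R882H arrays.

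T cells are rich in Thy1. Of 9 T and NK cell markers 4 were tested, 2 were higher and 2 lower than with empty vector, with a median of 0.02. Their mean log2 level was 1.54 to 1.70 with R882H, 1.51 to 1.55 with wild-type DNMT3A and 1.54 to 1.76 with empty vector. Cd3d and Cd2 were above background on no array, while Cd3e, Cd28, Lck and Nkg7 were above it on all 9. Stromal cells, which also make Thy1, gave 5 tested markers of 8, 4 of them higher with a median of 0.33: Pdgfrb by 0.58 ± 0.21 and Col1a2 by 0.84 ± 0.33. The other higher genes, Col3a1 and Cdh11, were tested only through their R882H arrays and support neither the count nor the median. Pdgfra, a defining stromal receptor, was above background on no array.

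Over the 9 arrays, each of the 9 genes detected throughout was set against 13116 others by Pearson's r, as a description, since arrays share groups, slides and numbers. The nearest pattern to Robo4 was that of Arhgap23 (r = 0.97), to Esam that of Cep112 (0.98), to Procr that of Zc4h2 (0.96) and to Thy1 that of Klhl21 (0.92). Kit was nearest to Zfp943 (0.96), Ly6a to Cnot9 (0.95), Cd48 to 4933427D14Rik (0.94), Cd34 to Ncoa7 (0.97) and Flt3 to Zfyve28 (0.95). Among the 10 themselves, Procr ran closest to Slamf1 (r = 0.89), Robo4 to Procr (0.81), Kit to Esam (0.80) and Cd34 to Flt3 (0.81). Slamf1 was above background on only 6 of the 9 arrays, and its readings on the others enter that r of 0.89. Lower best matches within the 10 were those of Cd48 with Cd34 (0.47), Ly6a with Robo4 (0.26) and Thy1 with Ly6a (0.15).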

How the data were processed

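RNA of 9 samples was measured on 1-colour Agilent arrays. Intensity values per spot were deposited by the authors, background-subtracted by Agilent Feature Extraction 10.10.1.1, per the file headers. Log2 values of 41854 probes stand in the table deposited by the authors, made by steps not stated here. For 7 of its 9 columns it disagreed with the scanner output on which array is which sample. Which labels are right could not be settled, so it served as an alternative.

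Here the intensity was taken to log2, each array's 75th percentile was subtracted and the unflagged spots of each probe were averaged. A gene was tested through its brightest probe if that was well above background on every array of some group. Symbols came from RefSeq. Limma 3.58.1 in R 4.3.3 was fitted on all 9 arrays, with 6 residual and 2.81 prior degrees of freedom, and Benjamini-Hochberg adjusted p under 0.05 was called over 13120 genes. The fit was tested on simulated data. Normexp used the median pixel signal, with an offset of 50, since the files used here hold no mean signal.

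The members and lists were chosen with earlier results of these data known. Named are all 10 members, 1 nearest pattern per member and, per list, up to 3 genes of smallest p in R882H against empty vector. Other listed genes are named for their detection, level or overlap, or to complete a list. Some listed genes are not reported here. Deviations of same-numbered arrays correlated at 0.116, 0.222 and 0.325 between wild-type DNMT3A and empty vector, all over 0.1, which the labels do not explain; the printed tests do not use this pairing, and the replicate block was run as an alternative. For R882H they were 0.0884, 0.198 and 0.279 with empty vector and 0.0713, 0.137 and 0.239 with wild-type DNMT3A, in replicate order. Only replicate 1 lay under 0.1 in each. Replicate 2 of R882H and of wild-type DNMT3A also shared slide 2.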

Additional observations from a re-analysis of the deposited data

How the results depend on the processing

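The members called numbered 0 under every setting run and with each array left out. With the replicate block the Robo4 differences kept their values, with adjusted p of 0.258 from empty vector and 0.241 from wild-type DNMT3A, and no call changed. In R882H against empty vector Robo4 and Esam stayed above 0 and Thy1 and Cd48 below it in all settings and with each array left out.

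With the deposited table's columns as named, R882H minus empty vector was -0.076 for Kit, -0.40 for Slamf1, -0.37 for Cd34, -0.55 for Flt3 and -0.18 for Procr, with a median over the 10 of -0.15. R882H minus wild-type DNMT3A was 0.10 for Cd48, with a median of 0.19. Wild-type DNMT3A minus empty vector was -0.10 for Kit, 0.062 for Ly6a, -0.22 for Cd48, -0.31 for Cd34, -0.58 for Flt3, -0.70 for Procr and -0.016 for Esam, with a median of -0.18.

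With slide as a block, R882H minus empty vector was -0.55 for Ly6a, with a median of 1.03, and wild-type DNMT3A minus empty vector was 0.60 for Slamf1 and 0.34 for Robo4, with a median of 0.41. Centring on the array median moved the median of all genes to -0.17 against empty vector, where Ly6a was -0.021 and Cd34 -0.10, and Flt3 was -0.076 against wild-type DNMT3A. Without number 3 in any group, R882H minus empty vector was -0.056 for Ly6a, -0.17 for Cd34 and -0.058 for Flt3, with a median of 0.013, R882H minus wild-type DNMT3A was -0.22 for Flt3, and wild-type DNMT3A minus empty vector was -0.11 for Procr. Flt3 against wild-type DNMT3A was also -0.011 with normexp, -0.10 with the mean of probes and -0.12 with array weights. The median against wild-type DNMT3A was 0.18 with normexp and 0.11 over probes above background on all 9 arrays, where Slamf1 has no value. The cause was not tested, except that the table and the scanner output disagree on which array is which sample.

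With 1 array left out, the median ran from 0.034 to 0.43 for R882H against empty vector, 0.20 to 0.47 for R882H against wild-type DNMT3A and -0.18 to 0.36 for wild-type DNMT3A against empty vector. Single genes that crossed 0 in R882H against empty vector were Ly6a (-0.19 to 0.39), Slamf1 (-0.16 to 1.57), Cd34 (-0.20 to 0.26) and Flt3 (-0.091 to 0.42). In R882H against wild-type DNMT3A they were Kit (-0.036 to 0.27) and Flt3 (-0.25 to 0.36), and in wild-type DNMT3A against empty vector Slamf1 (-1.42 to 0.31), Flt3 (-0.11 to 0.50), Procr (-0.25 to 0.52) and Esam (-0.045 to 0.81). Genes at an unadjusted p under 0.05 in R882H against empty vector numbered 1184, and 1787 with the replicate block, 1947 with array weights, 763 with slide as a block and 614 with the deposited table.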
